A study of Mus musculus with 18 samples.

Results

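The genes described here encode the proteins of the cytosolic ribosome in mouse liver. They were chosen by symbol alone, as the genes of the authors' deposited table named Rps or Rpl with a number and at most 1 closing a, x or l, together with Rplp0, Rplp1, Rplp2 and Rpsa. This gave 79 of 12019 genes: 31 of the small subunit, 43 of the large subunit, the 3 proteins of the ribosomal stalk, and the paralogs Rpl3l and Rps27l. The symbol rule leaves out 5 genes of the table that also encode ribosomal proteins, Fau, Gnb2l1 (now Rack1), Rpl22l1 and Rpl36al among them, which are given separately.

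The livers came from C57BL/6J mice. The 4 interventions each have 3 libraries: 30% caloric restriction (CR), rapamycin at 42 mg/kg/day, TM5614 at 20 mg/kg/day and metformin at 37.5 mg/kg/day. The control, mice fed ad libitum (AL), has 6 labelled libraries. Which of them stand behind the AL mean is not given. Every intervention lasted 8 weeks and started at 21 weeks of age, and the 3 compounds were given in the chow; no genetic change is named, and sex and batch are not stated. The design text speaks of 30 mice, while its groups and the labels hold 18 libraries. Whole perfused liver was used, so fewer cells of a type and less RNA per cell cannot be told apart.

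The deposited values used here are group means of normalised read counts, log2 fold changes against AL and adjusted p-values from the authors' DESeq2 fit over the whole table. A gene is said to have risen or fallen where that adjusted p is under 0.05. No value per library could be assigned to a sample, so every mean below is the authors' group mean without a spread, and variation between mice is seen only in the adjusted p. The 4 comparisons share the AL mean, and a single high or low AL value moves all 4 in the same direction.

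A ribosome has a small subunit, which reads the messenger RNA, and a large subunit, which joins amino acids; each holds ribosomal RNA and 1 copy of most of its proteins. The stalk proteins Rplp0, Rplp1 and Rplp2 recruit translation factors to the large subunit. Most ribosomal protein messenger RNAs in mammals start with a C followed by a run of pyrimidines, the 5′ terminal oligopyrimidine (5′ TOP) motif, through which the kinase complex mTORC1 controls their translation by way of LARP1. Rapamycin inhibits mTORC1. That control acts mainly on how often an RNA is translated, which total RNA levels do not measure. TM5614 inhibits plasminogen activator inhibitor 1, and metformin, a biguanide, lowers blood glucose.

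The starts of 6 of these RNAs are shown because their genes stand at the ends of the comparisons below or, for Rps6, carry the phosphorylation sites by which mTORC1 signalling is commonly read. Only starts that hold the pyrimidine run defined below were eligible, and not every eligible start is shown. Rpsa, also at the end of a comparison, had no such run, so the 6 do not show how common it is. Each sequence has 30 bases, reads 5′ to 3′ on the transcribed strand, and is taken from the RefSeq promoter table of build GRCm38.p6. Capitals mark the longest run of a C and at least 4 further pyrimidines that begins within 10 bases of the annotated start.
Rps6: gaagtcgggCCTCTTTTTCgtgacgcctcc
Rps9: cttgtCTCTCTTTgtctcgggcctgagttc
Rps21: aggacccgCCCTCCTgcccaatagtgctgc
Rplp2: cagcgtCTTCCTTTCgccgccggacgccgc
Rps12: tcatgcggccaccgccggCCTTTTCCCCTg
Rpl39: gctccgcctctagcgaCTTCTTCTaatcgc
These starts lie at chr4:86857348-86857377 (Rps6, minus strand), chr7:3704031-3704060 (Rps9, plus strand), chr2:180257369-180257398 (Rps21, plus strand), chr7:141447641-141447670 (Rplp2, plus strand), chr10:23787190-23787219 (Rps12, minus strand) and chrX:37085203-37085232 (Rpl39, minus strand). Of the 59 genes of the set that the promoter table holds, 36 had such a run, 61.0%, against 33.3% of all 27025 genes of that table. Among the 8620 genes of the promoter table that also stand in the expression table under the same symbol, the share was 36.3%. Only the transcribed strand was searched, and a run near an annotated start is a match of letters.

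Most of the 79 genes were abundant. The mean over the 5 groups was at least 50 normalised counts for 76 genes and at least 500 for 72. The 3 genes under 50 in the authors' deposited table were Rpl3l, a paralog of Rpl3 known from striated muscle, with 1.39 to 5.09, Rps27 with 8.28 to 49.3, and Rpl26 with 17.0 to 58.4. Summed, the 79 genes made up 1.62% of all normalised counts in CR livers, 1.49% in rapamycin livers, 1.43% in TM5614 livers and 1.61% in metformin livers, against 1.58% in AL livers. The metformin total holds the ribosomal RNA precursor Rn45s, which took 4.405% of it, against 0.227% of the AL total; its share was 0.472% in CR, 0.555% in rapamycin and 0.132% in TM5614 livers. By the authors' DESeq2 fit, Rn45s rose in metformin livers by 4.37 on the log2 scale (adjusted p = 0.00561). Whether 1 mouse carries that metformin mean cannot be seen without values per library. RNA was poly(A) selected before sequencing, and how much ribosomal RNA each library kept was not tested. With Rn45s left out of the totals the ribosomal protein share was 1.62% in CR, 1.496% in rapamycin, 1.43% in TM5614 and 1.68% in metformin livers, against 1.58% in AL livers, so that metformin then stood above CR. The differences between these shares were not tested, since each is 1 value per group.

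**Figure D1:**
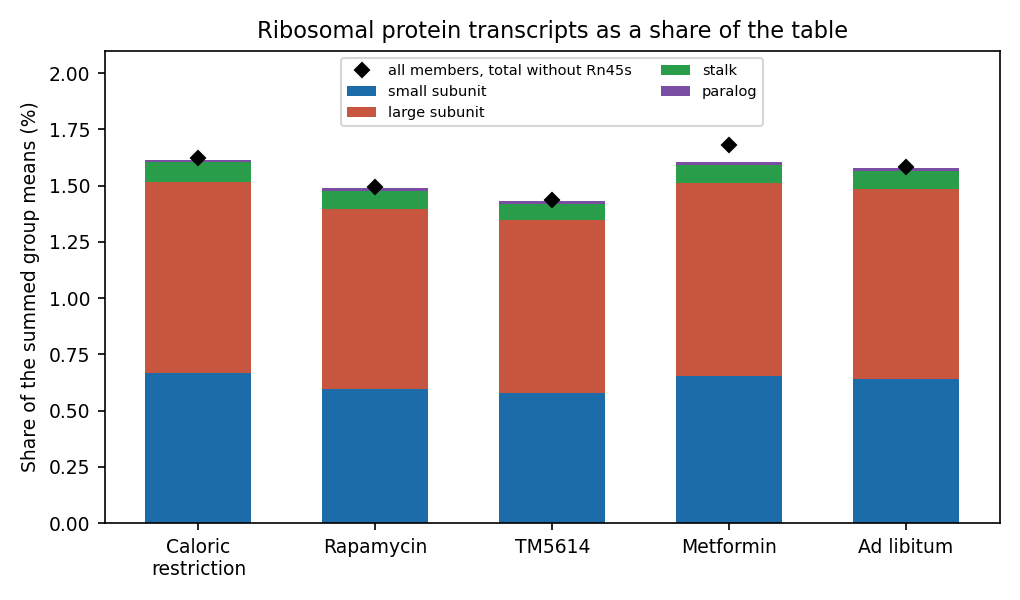
Share of all normalised counts held by the ribosomal protein genes, in percent, for each group. Bars stack the small subunit, the large subunit, the stalk and the paralogs, and the diamonds give all 79 genes with Rn45s left out of the total. TM5614 is the lowest group at 1.43% and the 2 totals part most in metformin livers, at 1.61% and 1.68%. Each bar is a sum of group means and has no error.

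The small subunit genes together had 78.1% of the summed count of the large subunit genes in CR livers, 74.2% in rapamycin, 74.9% in TM5614 and 76.02% in metformin livers, against 76.3% in AL livers. The level of single genes spread widely. Per kilobase of merged exons, averaged over the groups, the highest levels were those of the stalk protein gene Rplp1 (3609 normalised counts per kb), Rps3a (3398), Rps2 (2669), Rps15 (2441) and Rplp0 (2290). The lowest were Rpl3l (1.86), Rpl26 (23.0), Rpl30 (23.4), Rps27 (23.5) and Rpl34 (39.4). Divided instead by the length of the principal transcript, the highest were Rps2 (4464), Rpl10 (4340), Rplp1 (3609), Rps6 (3447) and Rps3a (3398), and the lowest were Rpl3l (2.22), Rpl26 (54.8), Rps27 (71.0), Rpl30 (79.7) and Rps15a (92.1). The order within each of these lists rests on 1 mean per gene and group, and neighbours cannot be told apart by a spread.

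The share of sequence that these genes have in common with other genes was also measured. Mouse ribosomal protein genes have many processed pseudogenes, copies of the spliced RNA in the genome. Each 50-base window of the principal transcript was looked up in the transcripts of all other annotated genes. Over the 79 genes a median of 48.6% of windows were found in no other gene, 41 genes had less than 50% of their windows to themselves, and 27 had no coding window of their own. Rps27, on chr3:90212522-90213651, had 1.35% of its windows to itself and none of its 206 coding windows, sharing them with 8 pseudogenes and 1 other gene. Of the other genes low per kilobase, the share was 20.8% for Rpl30 (chr15:34440505-34443640), 39.0% for Rpl26 (chr11:68901583-68906989) and 62.1% for Rpl34 (chr3:130726831-130730398). Some genes with few windows of their own were abundant. Rps6 (chr4:86854660-86857412) had 15.4% of windows of its own and no coding window of its own, and stood among the 5 highest per kilobase of transcript. Across the 79 genes the log2 level per kilobase of transcript and the share of own windows had a Pearson r of -0.26 and a Spearman rho of -0.27. The length of the principal transcript enters both measures. Rps15a, for one, has a principal transcript of 5179 bases, 93.6% of windows of its own and 92.1 normalised counts per kb. These coefficients therefore cannot show whether sequence sharing goes with the level, and they describe genes that share 5 group means. How the authors' counting treated reads that match several places is not given in the sources used here, so levels of genes with few windows of their own are uncertain; its part in these levels was not tested.

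**Figure D2:**
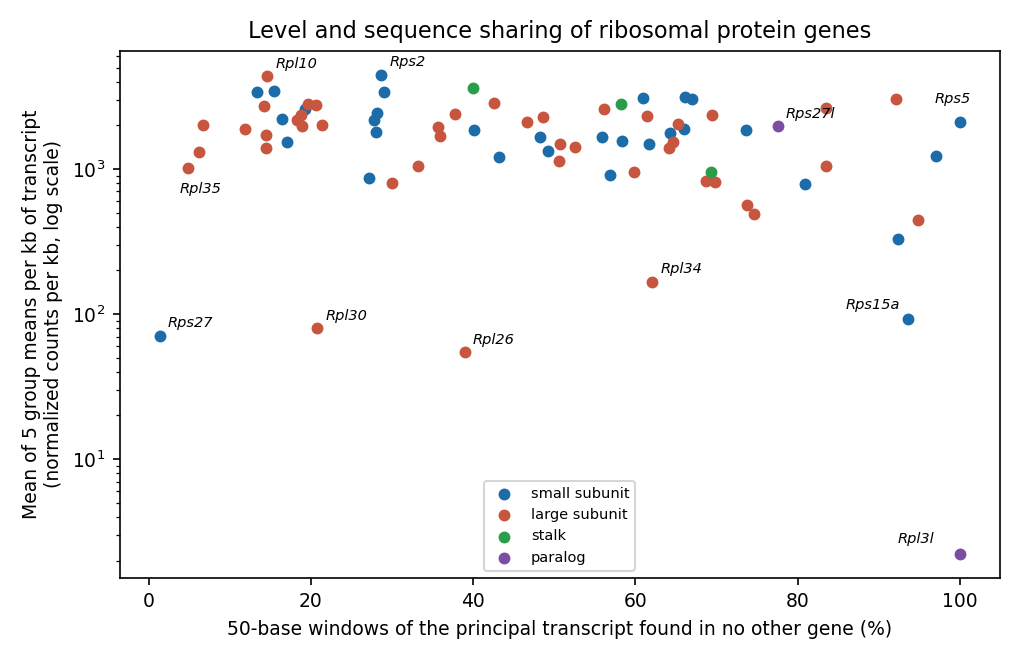
Level of each of the 79 genes per kilobase of principal transcript, averaged over the groups (log axis), against the percent of its 50-base windows found in no other annotated gene. Rps27 lies at the far left with 1.35% and 71.0 normalised counts per kb, while Rps6 at 15.4% lies at 3447.

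Rps27 and its paralog Rps27l were set side by side. Their coding sequences, from the GENCODE transcripts on GRCm38, have 255 bases each and are shown whole so that the spacing of their differences can be seen; capitals mark the bases at which they differ.
Rps27: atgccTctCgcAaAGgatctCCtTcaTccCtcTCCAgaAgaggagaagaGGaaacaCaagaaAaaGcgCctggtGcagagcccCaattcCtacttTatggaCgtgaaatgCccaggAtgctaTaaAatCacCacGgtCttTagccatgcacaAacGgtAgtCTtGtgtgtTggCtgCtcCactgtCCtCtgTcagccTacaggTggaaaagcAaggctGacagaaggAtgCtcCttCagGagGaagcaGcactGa
Rps27l: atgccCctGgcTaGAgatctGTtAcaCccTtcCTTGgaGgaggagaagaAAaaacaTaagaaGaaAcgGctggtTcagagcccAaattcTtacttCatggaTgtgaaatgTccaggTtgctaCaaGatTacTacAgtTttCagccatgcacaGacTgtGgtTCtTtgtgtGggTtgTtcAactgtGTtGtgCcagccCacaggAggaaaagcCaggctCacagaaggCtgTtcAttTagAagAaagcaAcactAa
They differed at 61 positions (76.1% identity), and the longest identical run had 11 bases, so no 50-base coding window was common to the 2 genes. Rps27l (chr9:66946086-66949516) had 77.6% of its windows to itself. Its means in the authors' deposited table were 887 normalised counts in CR livers, 1037 in rapamycin, 939.5 in TM5614 and 1091 in metformin livers, against 944 in AL livers. Rps27 had 47.8 in CR livers, 8.46 in rapamycin, 8.28 in TM5614 and 49.3 in metformin livers, against 8.68 in AL livers. The CR and metformin means of Rps27 were thus far above the other 3 (log2 fold changes 2.46 and 2.50), but the adjusted p was 0.0854 for CR and none is given for metformin in the authors' deposited table. Without values per library, it cannot be seen whether 1 mouse carries either mean.

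No gene of the set passed the test in any comparison. An adjusted p was given for 78 of the 79 genes under CR, rapamycin and TM5614 and for 75 under metformin, and 0 were under 0.05 in the authors' DESeq2 results. Of all genes tested, 19.0% passed under CR, 1.39% under rapamycin, 3.96% under TM5614 and 0.245% under metformin. The share was higher among abundant genes. Of the 937 genes with a mean of 1000 to 5000, 57 of them in the set, 36.7% passed under CR. There, 3.63% passed under rapamycin, 6.72% under TM5614 and 0.427% under metformin. Unadjusted p-values are not used here, and no other tool was run. The group means of these genes also lay close together. Over the 5 groups the highest and lowest mean of a gene were a median of 0.30 apart on the log2 scale among the 76 genes whose mean was at least 50, and 0.44 apart among all 8563 genes of the table at that level. The widest ranges were those of Rpl30 (0.64) and Rpl36 (0.51), and the other 74 of the 76 genes stayed under 0.5.

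The direction of these small differences was shared by most genes within each comparison. Of the 79 genes, 42 had their highest mean in metformin livers, 36 in CR livers and 1 in AL livers; 60 had their lowest in TM5614 livers, 12 in rapamycin, 2 in CR, 1 in metformin and 4 in AL livers. A size factor set for a library moves all genes of that library together, so these counts are not 79 separate observations. The matching counts over all genes were not made, so this order of groups cannot be called particular to ribosomal protein genes.

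**Figure D3:**
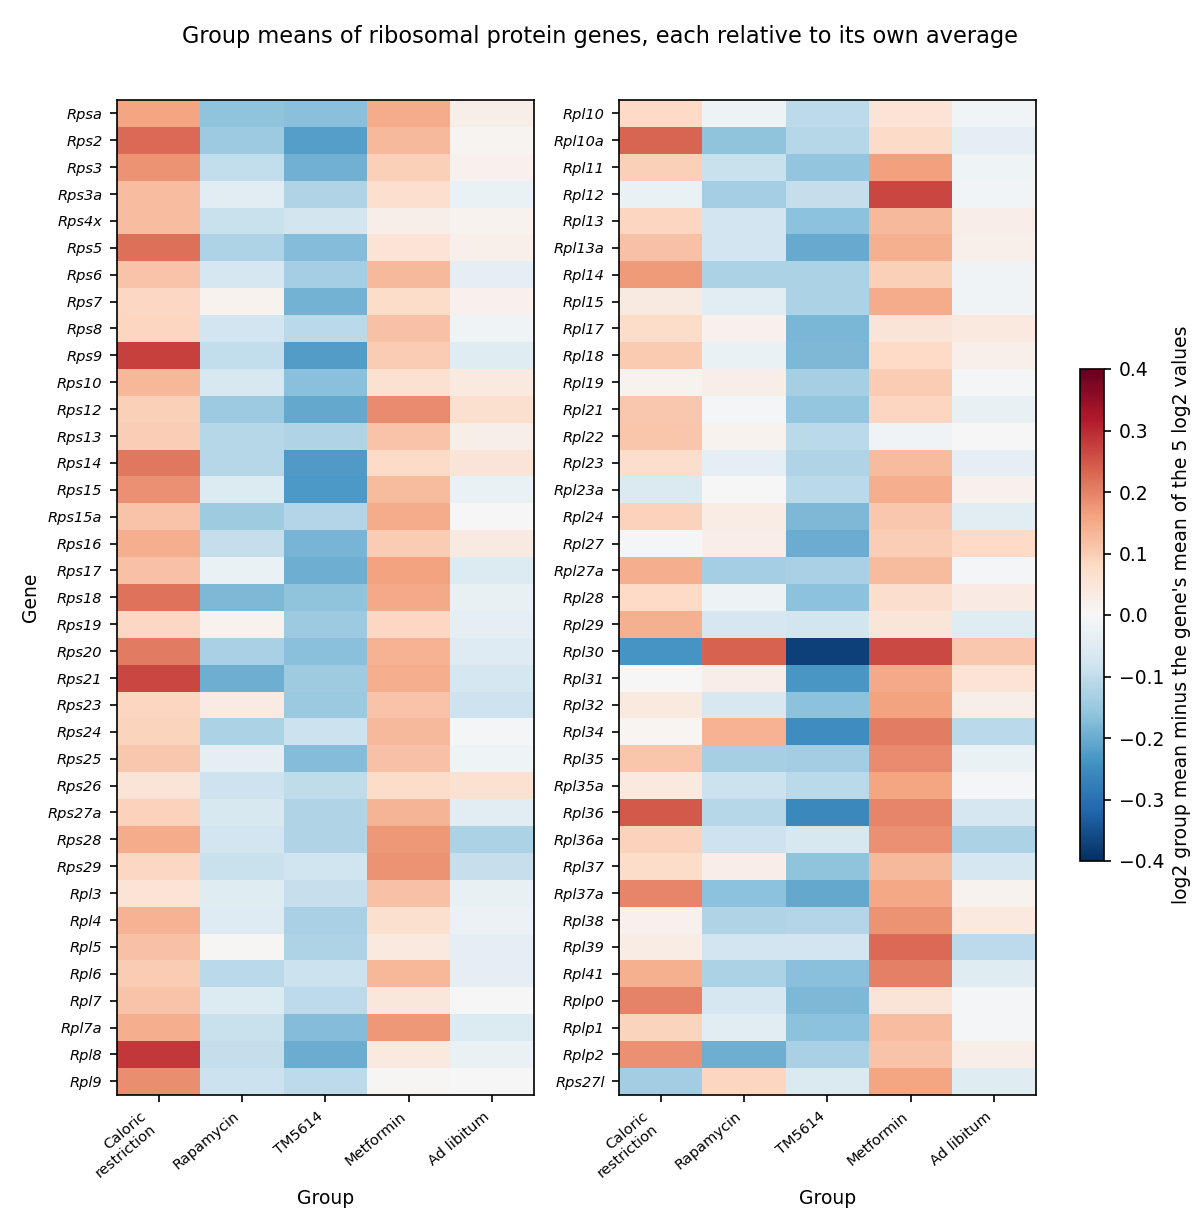
Group means of 74 of the 76 ribosomal protein genes whose mean was at least 50 normalised counts; colour gives the log2 group mean minus the gene's own average over the 5 log2 group means. Columns are the 4 interventions and AL; CR and metformin are mostly red (above the gene's average), rapamycin and TM5614 mostly blue (below it), and Rpl30 has the widest range, 0.64.

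The comparison of CR with free feeding asks how the ribosomal protein RNAs stand under a reduced food intake. CR livers had slightly more of most of them, and none passed the test. The median log2 fold change in the authors' deposited table was 0.14 over the 79 genes, with quartiles of 0.08 and 0.18. Among the 76 genes whose mean was at least 50, 67 were above 0 and 9 below, where 53.8% of all genes at that level were above and 46.2% below. The median of all genes at that level was 0.03. At a mean of at least 500, 65 of 72 ribosomal protein genes were above 0, with a median of 0.14. Of all 2185 genes with such a mean, 1292 were above 0, with a median of 0.08. By role the median was 0.15 for the small subunit, 0.12 for the large subunit and 0.15 for the stalk. The spread among the 76 genes was narrow, with an interquartile range of 0.10 against 0.48 for all genes with a mean of at least 50.

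The smallest adjusted p of CR was that of Rps9 (chr7:3703993-3706897), a small subunit protein at the entry of the messenger RNA channel. The authors' deposited table gives it 2713 normalised counts in CR livers and 2170 in AL livers, a log2 fold change of 0.32 (adjusted p = 0.0587). Rps21 (chr2:180257377-180258445), also of the small subunit, had 872.0 in CR livers and 690.0 in AL livers (0.34, adjusted p = 0.131). Rpl36 of the large subunit had 886 in CR livers and 714 in AL livers (0.31, adjusted p = 0.299). These were the 3 highest values of genes with a mean of at least 50.

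Rpl30 and Rps27l were among the lowest such values under CR. Rpl30, a large subunit protein that also takes part in selenocysteine incorporation, had 59.1 in CR livers and 74.9 in AL livers in the authors' deposited table (-0.35, adjusted p = 0.376). The log2 fold change was -0.09 for Rps27l (adjusted p = 0.752). Rpl26, below the level of 50, had 17.0 in CR livers and 48.1 in AL livers (-1.503, adjusted p = 0.475), and its size rests on low counts.

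The size of the CR median depends on the scale. The authors' normalised counts sum to a larger total in CR livers than in AL livers by 0.10 on the log2 scale. With every group set to the same total, the median of the 79 genes was 0.03, and 49 of 76 genes were above 0. With Rn45s and the 10 most abundant genes left out of the totals it was 0.05, with 57 of 76 above 0. On the authors' scale, among the 937 genes with a mean of 1000 to 5000, the smallest called change under CR was 0.21 in size, and 7 of the 57 ribosomal protein genes in that range reached it without passing.

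**Figure D4:**
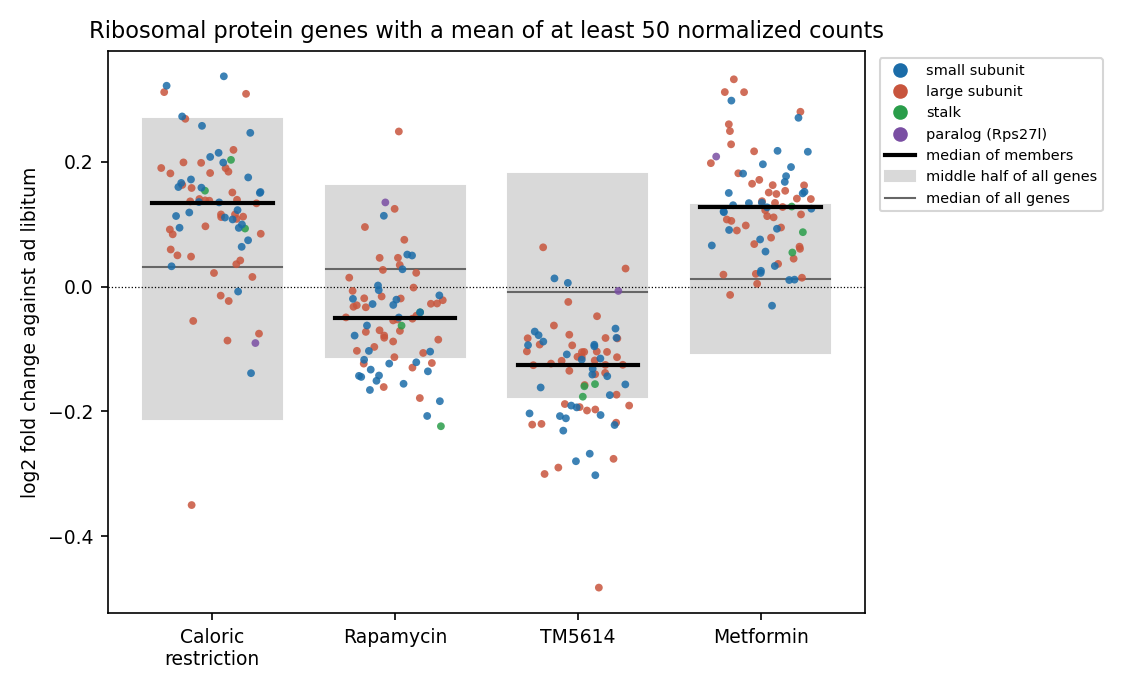
Log2 fold changes of the ribosomal protein genes with a mean of at least 50 normalised counts, in each intervention against AL livers, by role. Each point is 1 gene of the authors' deposited table; thick lines are medians of the points, grey boxes and thin lines the quartiles and median of all 8563 genes at that level. CR and metformin lie mostly above 0, rapamycin and TM5614 mostly below it, and no point passed the test.

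Rapamycin was compared with free feeding as the drug that inhibits the kinase complex upstream of 5′ TOP translation. Most ribosomal protein RNAs were a little lower in rapamycin livers, and none passed the test. The median log2 fold change in the authors' deposited table was -0.05, with quartiles of -0.12 and -0.01, against 0.03 for all genes with a mean of at least 50. Of the 76 genes at that level 60 were below 0 and 16 above, where 44.3% of all genes were below and 55.7% above. By role the median was -0.08 for the small subunit, -0.05 for the large subunit and -0.06 for the stalk.

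At a mean of at least 50, the lowest rapamycin values were those of Rplp2 of the stalk, Rps12 and Rpsa. Rplp2 had 798 normalised counts in rapamycin livers and 932 in AL livers in the authors' deposited table (-0.22, adjusted p = 0.688). Rps12 had 1171 in rapamycin livers and 1352 in AL livers (-0.21, adjusted p = 0.631, the smallest of this comparison). Rpsa, which is also known as the laminin receptor, had 2878 in rapamycin livers and 3269 in AL livers (-0.18, adjusted p = 0.699). Rpl26, below that level, had 20.9 in rapamycin livers and 48.1 in AL livers (-1.20, adjusted p = 0.818). The highest at that level were Rpl34 (0.25, adjusted p = 0.733), Rps27l (0.14, adjusted p = 0.832) and Rpl30 (0.12, adjusted p = 0.927). None of the 57 genes with a mean of 1000 to 5000 reached 0.2107, the smallest called change among all genes of that level under rapamycin. Rps12, at -0.2073, lay just short of it.

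TM5614 livers had the lowest levels of the set as a whole. The median log2 fold change in the authors' deposited table was -0.13, with quartiles of -0.19 and -0.09, against -0.01 for all genes with a mean of at least 50. Of the 76 genes at that level 72 were below 0 and 4 above, where 51.4% of all genes were below and 48.6% above, and none passed the test. At a mean of at least 500, 68 of 72 ribosomal protein genes were below 0, with a median of -0.13. Of all 2185 genes with such a mean, 1299 were below 0, with a median of -0.05. By role the medians were -0.14 for the small subunit, -0.12 for the large subunit and -0.16 for the stalk. The median of the 79 genes changed little with the scale, at -0.12 with every group set to the same total.

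Among genes with a mean of at least 50, Rpl30 was lowest under TM5614 as under CR, with 53.7 normalised counts in TM5614 livers and 74.9 in AL livers in the authors' deposited table (-0.48, adjusted p = 0.305). Rpl26, below that level, had 21.6 in TM5614 livers and 48.1 in AL livers (-1.16, adjusted p = 0.699). Of the 57 genes with a mean of 1000 to 5000, 2 reached 0.29, the smallest called change at that level under TM5614, without passing. Among the 76 genes the 4 above 0 were Rpl36a (0.06), Rpl39 (0.03), Rps29 (0.01) and Rps28 (0.01), the last named after its value was seen.

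Across all 8470 genes with a mean of at least 50 and an annotated length, the log2 fold change under TM5614 moved with exon length, with a Spearman rho of 0.31; it was 0.10 under CR, 0.10 under rapamycin and -0.06 under metformin. The ribosomal protein genes are short, with a median merged exon length of 1805.5 bases in the 76 at that level against 4546 for all these genes. Within the 76 ribosomal protein genes rho was 0.04 under TM5614, -0.05 under CR, -0.15 under rapamycin and -0.12 under metformin. These are descriptions across genes, and the part of length in the TM5614 median was not tested.

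Metformin livers had slightly more of nearly all ribosomal protein RNAs, and none passed the test. The median log2 fold change in the authors' deposited table was 0.13, with quartiles of 0.07 and 0.18, against 0.01 for all genes with a mean of at least 50. Of the 76 genes at that level 74 were above 0 and 2 below, where 52.8% of all genes were above and 47.2% below. The medians were 0.13 for the small subunit, 0.13 for the large subunit and 0.09 for the stalk. With every group set to the same total, Rn45s included, the median was 0.04 and 52 of 76 genes were above 0; without Rn45s and the 10 most abundant genes it was 0.12, with 73 above 0.

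At a mean of at least 50, the highest metformin values were those of Rpl39, Rpl36a and Rpl34, 3 small proteins of the large subunit. Rpl39, which lines the exit tunnel of the nascent chain, had 744 normalised counts in metformin livers and 591 in AL livers in the authors' deposited table (0.33, adjusted p = 0.912). Rpl36a had 762 in metformin livers and 614 in AL livers (0.31), and its adjusted p of 0.885 was the smallest of the comparison. Rpl34 had 119 in metformin livers and 96.0 in AL livers (0.31, adjusted p = 0.925). Rpl22 (-0.01) and Rpl9 (0.00) were among the lowest at that level. Rps27, below it, stood higher at 2.50, as given above, with no adjusted p. The smallest called change of genes with a mean of 1000 to 5000 was 0.44 under metformin, which none of the 57 ribosomal protein genes in that range reached.

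Rps6, Rpl5, Rpl11 and Rps27a have further known roles. Rps6, the substrate of the S6 kinases downstream of mTORC1, had 3264 normalised counts in CR livers, 2881 in rapamycin, 2749 in TM5614 and 3300.2 in metformin livers, against 2938 in AL livers, in the authors' deposited table. Rpl5 and Rpl11, which form the 5S ribonucleoprotein particle that can bind Mdm2, had log2 fold changes of 0.16 and 0.11 under CR, 0.05 and -0.07 under rapamycin, -0.08 and -0.14 under TM5614, and 0.08 and 0.18 under metformin. Rps27a, made as a fusion with ubiquitin, had 1516 in CR livers, 1361 in rapamycin, 1308 in TM5614 and 1561 in metformin livers, against 1380 in AL livers. The adjusted p of these 4 genes lay above 0.3 in all 4 comparisons of the authors' deposited table.

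The 5 ribosomal protein genes outside the symbol rule gave the same count, 0 of 5 past the test in each comparison of the authors' deposited table. Their median log2 fold change was 0.17 under CR, -0.09 under rapamycin, -0.17 under TM5614 and 0.10 under metformin.

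Other RNAs known to start with a 5′ TOP, mostly translation factors, were taken as a related list. Of the 20 genes of that list, 8 rose under CR and 0 fell, with a median log2 fold change of 0.26. Among all genes tested 9.74% rose and 9.24% fell. Most of the list is abundant, and abundant genes passed more often under CR. Of the 2184 genes tested with a mean of at least 500, 439 rose and 307 fell, with a median of 0.08 at that level. Eif4b, a cofactor of the helicase that unwinds messenger RNA starts, had 3271 normalised counts in CR livers and 2168 in AL livers in the authors' deposited table (0.59, adjusted p = 2.03e-11). The nucleolar chaperone gene Npm1 had 1658 in CR livers and 1099.6 in AL livers (0.59, adjusted p = 0.00041). Eef2, the translocation factor of elongation, rose by 0.49 (adjusted p = 2.16e-05), and the RNA-binding protein gene Hnrnpa1 by 0.49 (adjusted p = 0.00382). Under rapamycin 1 of 20 rose, the histone chaperone gene Nap1l1 (0.54, adjusted p = 0.00197), and 0 fell, beside 0.714% and 0.675% of all genes tested. Under TM5614 1 of 20 rose, the small nucleolar RNA host gene Gas5 (1.10, adjusted p = 0.0122), and 0 fell, beside 2.01% and 1.95% of all genes. Under metformin 0 of 20 passed, beside 0.163% that rose and 0.0816% that fell. The medians of the list were 0.08 under rapamycin, -0.02 under TM5614 and 0.06 under metformin. The difference between this list and the ribosomal protein genes was not tested, and its CR median stands on the authors' scale, whose CR total is 0.10 higher.

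The ribosome assembly list holds factors that process ribosomal RNA or join the proteins to it. It also holds genes for the transcription of ribosomal RNA, such as Polr1a and Ubtf, and the transcription factor gene Myc. The list was higher at the median under TM5614. Of 36 genes in the table, 3 rose under TM5614 and 0 fell, with a median log2 fold change of 0.38, beside 2.01% of all genes that rose and 1.95% that fell; the ribosomal protein median was -0.13. The 3 were Rrp12 (0.91, adjusted p = 0.0025), a factor of pre-ribosome export and maturation, Wdr43 (0.76, adjusted p = 0.00197), a small subunit processome protein, and the nucleolar helicase gene Ddx21 (0.58, adjusted p = 0.0428), all from the authors' deposited table. Under CR 3 rose, Rrp12 (0.83, adjusted p = 0.00126), the nucleolin gene Ncl (0.77, adjusted p = 2.46e-07) and Nop14 (0.44, adjusted p = 0.0493), and 1 fell, the pseudouridine synthase gene Dkc1 (-0.58, adjusted p = 0.00811); the median was 0.16, and 9.74% of all genes rose and 9.24% fell. Rapamycin (median 0.12) and metformin (0.14) had 0 genes past the authors' DESeq2 threshold. The differences between the assembly list and the ribosomal protein genes were not tested.

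Of the 17 genes of the mTORC1 arm of translation, 1 rose and 2 fell under CR, where 9.74% of all genes rose and 9.24% fell, so the share called is near that of all genes (19.0%). The S6 kinase gene Rps6kb1 rose (0.38, adjusted p = 0.028), and Pdcd4, an inhibitor of the initiation helicase, and the kinase gene Mtor fell (-0.84, adjusted p = 0.0154, and -0.40, adjusted p = 0.0317) in the authors' deposited table. Under TM5614 1 rose, Larp4, a poly(A)-binding protein partner (0.46, adjusted p = 0.00629), where 2.01% of all genes rose. Under rapamycin and metformin 0 passed. The medians were 0.10 under CR, 0.00 under rapamycin, 0.04 under TM5614 and 0.05 under metformin.

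The mitochondrial ribosome, whose proteins are encoded by other nuclear genes, differed in sign from the cytosolic one under CR on the authors' scale. Of its 76 genes 10 fell and 0 rose under CR, with a median log2 fold change of -0.19 against 0.14 for the 79 cytosolic genes; among all genes 9.24% fell and 9.74% rose. Mrps27 had 131 normalised counts in CR livers and 240.3 in AL livers in the authors' deposited table (-0.87, adjusted p = 1.24e-07). Mrpl1 (-0.61, adjusted p = 0.000314), Mrpl44 (-0.54, adjusted p = 0.00514) and Mrps15 (-0.53, adjusted p = 0.0177) fell as well. Under the 3 compounds 0 passed in the authors' DESeq2 results, and the medians were -0.02 under rapamycin, -0.10 under TM5614 and 0.09 under metformin. Of the 8550 genes tested with a mean of at least 50, 903 fell and 1043 rose under CR. With every group set to the same total, the cytosolic CR median was 0.03, and the mitochondrial one was not recomputed. The difference between the 2 ribosomes was not tested.

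**Figure D5:**
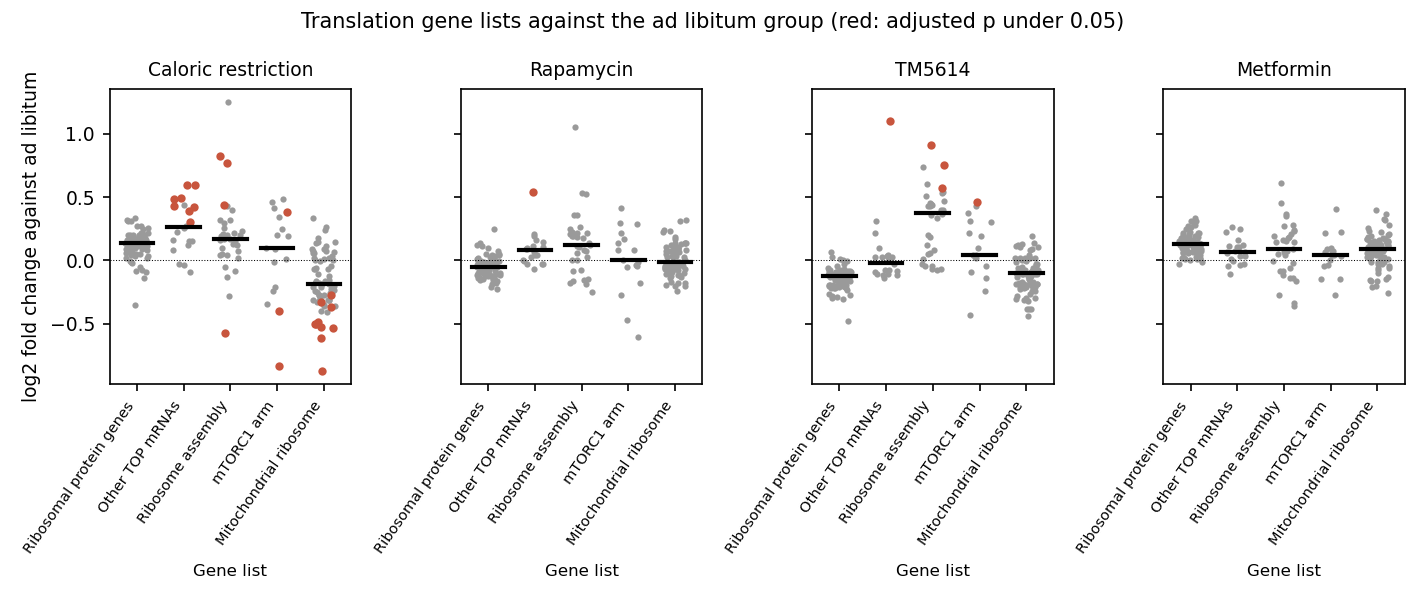
Log2 fold changes of the cytosolic ribosomal protein genes and the 4 related lists in each intervention against AL livers, for genes with a mean of at least 50 normalised counts. Each point is 1 gene, red where the authors' adjusted p is under 0.05, and black bars are medians of the genes drawn; red points stand in the related lists and in none of the cytosolic ribosomal protein panels.

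Markers of liver cell types were set beside these results, and their part in them was not tested. The summed means of 7 hepatocyte markers were 1.10e+06 in CR, 736628 in rapamycin, 837969 in TM5614 and 884615 in metformin livers, against 815137 in AL livers. Most of that sum was Alb, with 858112 in CR and 606485 in AL livers. Under CR 4 of the 7 rose, Ttr fell and Apoa1 was lower without passing. The 5 Kupffer cell markers in the table summed to 592 in CR, 993 in rapamycin, 915 in TM5614 and 895 in metformin livers, against 1114 in AL livers, and C1qa and Cd5l fell under CR. The 5 sinusoidal endothelial markers summed to 1060 in CR, 719 in rapamycin, 1052 in TM5614 and 818 in metformin livers, against 1154 in AL livers, and Stab1 and Stab2 fell under rapamycin. The 5 pancreas markers summed to between 2.49 and 4.27 in the 4 interventions, against 259 in AL livers; Cpa1, Ctrb1, Pnlip and Prss2 were at 0 in each intervention and none was at 0 in AL livers. Cela2a, the remaining one, fell under CR and TM5614. Neutrophil markers (2 of 4 in the table) summed to 42.3 in CR, 128 in rapamycin, 48.3 in TM5614 and 45.5 in metformin livers, against 79.9 in AL livers. Erythroid markers (3 of 5) summed to 674 in CR, 877 in rapamycin, 1016 in TM5614 and 1094 in metformin livers, against 988 in AL livers. Under CR 1 erythroid and 1 stellate marker fell. The erythroid one was Alas2, with 152 in CR and 766 in AL livers. Hba-a1 (128 in CR, 69.5 in AL livers) and Hba-a2 (394 and 153) were higher without passing. Stellate markers (5 of 5) summed to between 1290 and 1681 in the interventions, against 1509 in AL livers, and cholangiocyte markers (5 of 5) to between 272 and 412, against 320 in AL livers. Markers of B and plasma cells (4 of 5) and of T and NK cells (2 of 5) summed to under 50 in every group.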

How the data were processed

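RNA of whole perfused mouse liver was sequenced after poly(A) selection, per the labels' protocols. Alignment used HISAT2 2.0.5 and mm10, per the submitters' processing notes. How genes were counted, by strand and for reads matching several places, is not given in the sources used here. Per the file headers, the authors' deposited table holds 1 signal per group, by its values a mean of counts divided by size factors. Each intervention has a deposited log2 fold change and adjusted p-value, which the authors made with DESeq2. The deposited log2 fold changes were close to the log2 ratios of the group means (median distance at most 0.0022). A second table has 18 columns of values per library, whose names match none of the labels; none was used. A log2 fold change column for a compound absent from the labels was not used either. Depth per library is therefore unknown. The smallest AL means, 0.315 to 0.350, were of the size of those of the groups of 3 libraries (0.299 to 0.398), although 6 AL libraries are labelled; which libraries stand behind the AL mean is not given. The labels do not say whether the libraries come from separate litters or cages, and p-values measure the spread between these libraries.

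The genes and lists were chosen with earlier results of these data known. Medians, shares and levels per kilobase were computed with pandas 2.3.3. The medians, the counts of called genes and the window search were checked on simulated data. Shares and levels per kilobase were not checked in that way. Gene models, coordinates and the 50-base windows came from GENCODE vM21 on GRCm38, the assembly also called mm10; all 79 genes matched. The genes named are any past the threshold, the 3 highest and 3 lowest log2 fold changes per comparison among those with a mean of at least 50, the 5 highest and 5 lowest per kilobase, the 3 widest ranges, those with a role fixed in the gene lists, up to 4 called genes per related list and comparison, and Rn45s. A few genes that this rule would name are not reported here. Alternatives were other thresholds, pseudocounts of 1 and 10, other totals, centring and subsets of the genes. The tests planned per library (limma, with and without a block) were replaced by the authors' adjusted p, since no column could be given a sample.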

Additional observations from a re-analysis of the deposited data

How the results depend on the processing

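The 4 medians of the 79 genes were recomputed with pseudocounts of 1 and 10, with other totals, centred on all genes and on subsets of the genes; their 4 counts of called genes at an adjusted p of 0.1 and 0.01 and at a mean of at least 50; and their shares with other totals. Medians by role and the related lists were not recomputed. The subsets with a mean of at least 500 or with at least 50% of their windows of their own, the total without Rn45s alone and the lengths of principal transcripts were chosen after seeing the data. Of 62 alternative values 55 stayed within 1.5 times of the reported one, 7 did not, and 0 changed sign. Some of the 62 could not move: a count of 0 at 0.05 stays 0 at 0.01 or in a subset. Counts and shares cannot change sign, and pseudocounts of 1 and 10 alter genes of this abundance little. With every group set to the same total, 3 of the 4 medians moved. At an adjusted p under 0.1, CR had 2 ribosomal protein genes past the threshold, Rps9 and Rps27; the other 3 comparisons still had 0. The CR median was 0.0346 with every group set to the same total, 0.0382 with totals without Rn45s and 0.0538 without Rn45s and the 10 most abundant genes. The rapamycin median was -0.0747 with the same total and -0.0753 without Rn45s and those 10 genes. The metformin median was 0.0361 with the same total. These 6 medians moved because the group totals differ. The share of all counts held by the 79 genes without Rn45s and those 10 genes was 1.99% in CR, 1.81% in rapamycin, 1.74% in TM5614 and 2.07% in metformin livers, against 1.92% in AL livers. No paired analysis was possible because the columns per library carry names that match none of the labels; the planned limma fits and the fits leaving out each replicate were not run for that reason. Depth per library is unknown, so no interval is given for any mean or share, and the group differences in these genes rest on means alone.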
